A study of Homo sapiens with 6 samples.

Results

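The genes RMND1, GTPBP6, TRMO, GET4, SGTA, THOP1, WASHC2C, DVL2, PHF23 and SLC33A1, 10 of 20037 protein-coding genes on the primary chromosomes, were described for PRMT5 occupancy at their ends in 2 human prostate cancer cell lines. They were chosen by their PRMT5 peaks, which were high in LNCaP and present in both lines, and because none is known first as a lysosomal gene. Their PRMT5 values are therefore a description and carry no test. Chromatin was profiled in LNCaP, a line derived from a lymph node metastasis that responds to androgen, and PC3, a line derived from a bone metastasis that grows without it. The groups were LNCaP with a PRMT5 antibody from Active Motif, PC3 with the same PRMT5 antibody, LNCaP with a METTL3 antibody from Abcam, PC3 with the same METTL3 antibody, and a control of each line titled IgG whose antibody field gives only a secondary antibody. The labels name no treatment and the same serum medium for all cells, and every group was 1 library of 100000 cells amplified with 16 PCR cycles, 6 libraries in all. Peaks of each antibody library were called against the same line's control, which gave 4 peak lists. No spread between replicates can be given, so differences between the lines or antibodies below compare single libraries.

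PRMT5 is an arginine methyltransferase that works with the WD-repeat protein WDR77 and places symmetric dimethyl marks on histones and on splicing proteins. Histone marks placed by PRMT5 are mostly known from repressed genes, although the enzyme also joins activating complexes, and it has no DNA-binding domain of its own. METTL3, the other target profiled, is the catalytic subunit of the enzyme that writes N6-methyladenosine on RNA.

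The genes belong to separate cell functions. RMND1 anchors and supports translation in mitochondria, and GTPBP6 is a GTPase of mitochondrial ribosome assembly and recycling. TRMO methylates a modified adenosine beside the anticodon of certain tRNAs. GET4 and SGTA hand newly made tail-anchored membrane proteins to the insertion machinery of the endoplasmic reticulum, and THOP1 is a metallopeptidase that cuts short peptides. WASHC2C belongs to the WASH complex, which drives actin assembly on endosomes, DVL2 relays Wnt signals from the receptor, PHF23 is a PHD finger protein that reads a histone methyl mark and restrains autophagy, and SLC33A1 carries acetyl-CoA into the endoplasmic reticulum.

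The sequences under the peaks are shown first because an E-box, CACGTG, recurred in them. The letters CACGTG are the core bound by several basic helix-loop-helix factors, among them USF, MYC and the TFE family, and they read the same on both strands. Each run below holds 121 bases centred on the LNCaP summit, the base where the caller placed the top of the peak. The runs are 5′ to 3′ on the strand of the gene, from the RefSeq promoter table of GRCh38.p14, with CACGTG in capitals. They come from RMND1 at chr6:151452113-151452233 on the minus strand, GTPBP6 at chrX:318925-319045 on the minus strand, TRMO at chr9:97922222-97922342 on the minus strand, WASHC2C at chr10:45727096-45727216 on the plus strand, DVL2 at chr17:7234554-7234674 on the minus strand, and SLC33A1 at chr3:155854664-155854784 on the minus strand.
RMND1: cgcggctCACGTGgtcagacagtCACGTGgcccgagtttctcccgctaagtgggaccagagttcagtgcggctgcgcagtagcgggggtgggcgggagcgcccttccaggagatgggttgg
GTPBP6: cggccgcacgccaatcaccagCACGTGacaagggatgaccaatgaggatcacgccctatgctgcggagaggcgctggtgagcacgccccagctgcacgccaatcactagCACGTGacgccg
TRMO: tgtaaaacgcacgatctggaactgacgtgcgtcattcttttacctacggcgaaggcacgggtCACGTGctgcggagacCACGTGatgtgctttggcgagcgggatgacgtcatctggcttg
WASHC2C: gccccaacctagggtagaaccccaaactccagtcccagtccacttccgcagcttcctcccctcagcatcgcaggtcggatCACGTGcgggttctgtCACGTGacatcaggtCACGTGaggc
DVL2: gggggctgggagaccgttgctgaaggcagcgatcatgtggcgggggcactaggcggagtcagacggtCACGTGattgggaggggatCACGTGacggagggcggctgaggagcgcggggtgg
SLC33A1: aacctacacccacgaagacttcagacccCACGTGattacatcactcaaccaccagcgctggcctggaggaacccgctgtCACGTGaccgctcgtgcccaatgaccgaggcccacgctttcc

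PRMT5 peaks stood at an end of all 10 genes in both lines, which the choice of the genes fixed. A gene was counted when the summit of a list entry lay within 3 kb of its start or end in the RefSeq table (hg38 coordinates). This held for 1.92% of all protein-coding genes in the LNCaP PRMT5 list, for 2.42% in the PC3 PRMT5 list and for 0.958% in both. The fold of an entry is the authors' caller's ratio of signal to that expected from the control, and −log10 q is its significance as the caller gave it. Both serve here to describe and rank entries within a list, and where folds of the 2 lines stand side by side they come from separate calls against separate controls and were not tested. The members' highest entries had folds of 16.0 to 61.5 in LNCaP, with a median of 23.1, where the whole list of 980 entries had a median of 6.56. In PC3 they had folds of 7.81 to 19.2, with a median of 12.1, where the whole list of 1661 had a median of 5.89. A fold of at least 10 was reached by 10 members in LNCaP and 7 in PC3, and by 16.0% of all LNCaP entries and 7.1% of all PC3 entries. GET4, GTPBP6 and SLC33A1 stayed below 10 in PC3, so 7 genes reached 10 in both lines by their highest entries. Among these 7, SGTA and THOP1 share their highest entry in each line, as do DVL2 and PHF23. The PC3 fold of 11.8 at DVL2 and PHF23 came from another place than their LNCaP peak. At the place of that LNCaP peak the PC3 fold was 5.37.

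**Figure D1:**
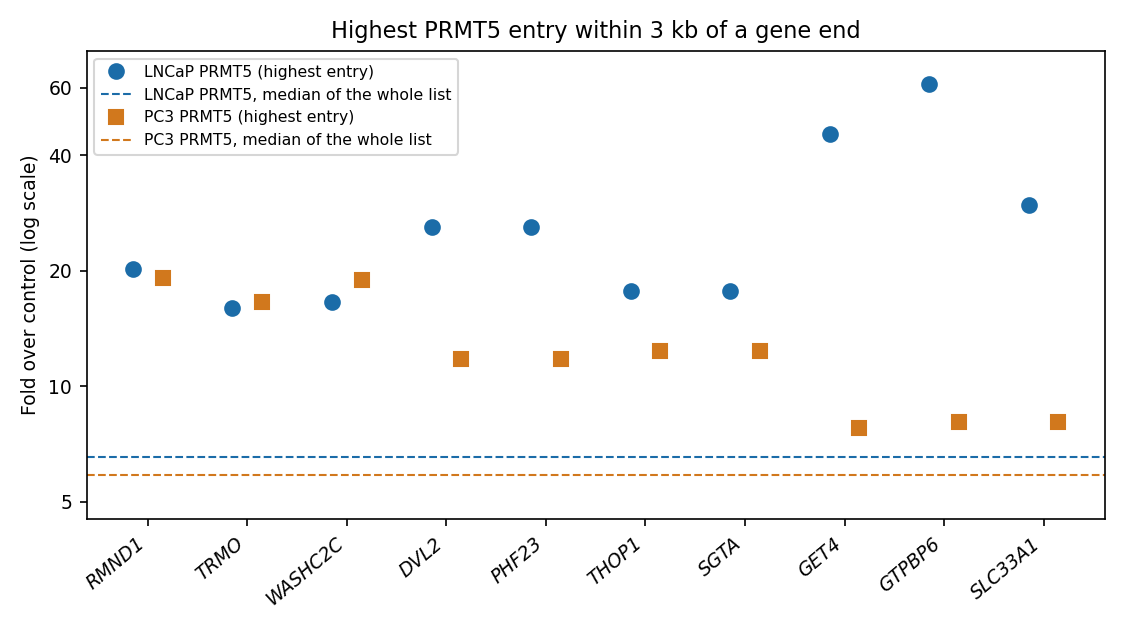
Fold over the control (vertical log axis) of the highest PRMT5 entry within 3 kb of an end of each gene (horizontal axis), with circles for LNCaP and squares for PC3, 1 library each; dashed lines mark the medians of the whole lists, 6.56 in LNCaP and 5.89 in PC3. GTPBP6 and GET4 were highest in LNCaP, at 61.5 and 45.5, while RMND1 and WASHC2C were highest in PC3, at 19.2 and 19.0.

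RMND1, a mitochondrial translation gene at chr6:151404762-151452126, had 1 entry in each PRMT5 list, and its PC3 fold was the highest of the set. The LNCaP entry had a fold of 20.2 and a −log10 q of 39.3, and ranked 22 of 980 by fold. The PC3 entry had a fold of 19.2 and a −log10 q of 44.5, and ranked 16 of 1661. The summits lay 47 bp upstream of the start site in LNCaP and 91 bp upstream in PC3. All 236 bp of the LNCaP entry fell inside the PC3 entry. RMND1 shares this promoter with DCPH1, a protein-coding gene that runs the other way, whose start lay 293 bp from the LNCaP summit and 249 bp from the PC3 summit.

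GTPBP6, the mitochondrial ribosome GTPase at chrX:304759-318796, held the highest fold of the whole LNCaP list, while its PC3 fold was below 10. The LNCaP entry had a fold of 61.5 and a −log10 q of 206, and ranked first by fold and 36 by q. The PC3 entry had a fold of 8.06 and a −log10 q of 49.4, and ranked 231 by fold and 55 by q. The position was the same to within 3 bp, 189 bp upstream of the start in LNCaP and 192 bp in PC3, and 160 bp from the start of the noncoding gene LINC00685 in LNCaP. Both lines had further entries inside the gene and within 3 kb of its start. These lay 725 and 2705 bp from the start in LNCaP, with folds of 13.4 and 7.66, and 758 and 2707 bp from it in PC3, with folds of 6.91 and 7.33. Beyond 3 kb, the gene held 2 more entries in LNCaP, with folds of 6.48 and 5.45, and 2 more in PC3, with folds of 6.35 and 2.78. Upstream of the gene an entry lay 4929 bp from the start in LNCaP, with a fold of 4.09 and a −log10 q of 13.9, and 4874 bp from it in PC3, with a fold of 11.5 and a −log10 q of 62.0. In PC3 this outer entry was thus above the one at the GTPBP6 start by both measures. GTPBP6 lies in the pseudoautosomal region, where X and Y carry the same sequence, so reads cannot be placed on one of them. The first 2.8 Mb of X held 9 entries in the LNCaP PRMT5 list, 9 in the PC3 PRMT5 list, 0 in the LNCaP METTL3 list and 5 in the PC3 METTL3 list. The first 2.8 Mb of Y held 0 in every list, so the deposited lists carry such entries on X alone.

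TRMO, the tRNA methyltransferase gene at chr9:97896855-97922500, was among the most alike in the 2 lines. The LNCaP entry had a fold of 16.0, a −log10 q of 28.1 and rank 46. The PC3 entry had a fold of 16.6, a −log10 q of 32.2 and rank 21. Both summits lay upstream of the nearer of the gene's 2 annotated start sites, by 101 bp in LNCaP and 159 bp in PC3, and so between these start sites. No other gene of any type had an end within 3 kb.

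GET4, at chr7:876554-896436, had the widest peak of the set and many other entries around it. Its main LNCaP entry was 2310 bp wide, with a fold of 45.5, a −log10 q of 520 and rank 3 by fold. In PC3 the main entry was 1675 bp wide, with a fold of 7.81, a −log10 q of 195, rank 272 by fold and rank 22 by q. The summits were 3 bp apart, 180 bp from the gene end at the low coordinate in LNCaP and 183 bp in PC3. SUN1, which encodes a protein of the inner nuclear membrane, had an end 1440 bp from the LNCaP summit. Within 3 kb of the GET4 ends there were 4 LNCaP and 8 PC3 entries. A further 11 LNCaP entries with folds of 4.76 to 14.4 and 21 PC3 entries with folds of 2.99 to 14.0 lay within 25 kb, of which 2 in LNCaP and 8 in PC3 lay inside GET4. In PC3 some of these outer entries had a higher fold than the main one, up to 14.0, but none had a higher −log10 q than 35.1. The 3 kb limit cut through this cluster: a PC3 entry of fold 3.95 at 2756 bp was counted, and a LNCaP entry of fold 14.4 at 3079 bp and a PC3 entry of fold 11.3 at 3121 bp were not.

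SGTA and THOP1 are neighbours on chromosome 19 and shared 1 entry in each line, which belongs by position to SGTA. SGTA spans chr19:2754715-2783273 and THOP1 spans chr19:2785503-2815807, and they are transcribed away from each other. The LNCaP entry had a fold of 17.7, a −log10 q of 40.1 and rank 29. The PC3 entry had a fold of 12.4, a −log10 q of 17.5 and rank 49. The LNCaP summit was 285 bp upstream of the SGTA start and 1945 bp upstream of the THOP1 start. The PC3 summit was 271 bp upstream of SGTA and 1959 bp upstream of THOP1. THOP1 had a second entry in LNCaP alone, of fold 12.4, 2164 bp past its other end and 1897 bp upstream of ZNF554. With the limit set at 1 kb THOP1 dropped out in both lines.

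WASHC2C, the WASH complex gene at chr10:45727043-45792964, had its summits 1 bp apart. The LNCaP entry had a fold of 16.6, a −log10 q of 38.9 and rank 39. The PC3 entry had a fold of 19.0, a −log10 q of 39.4 and rank 17. The LNCaP summit lay 110 bp upstream of the nearer of 2 start sites and 26 bp from the start of the noncoding gene LOC107984227. A weaker pair of entries stood about 2.6 kb upstream, with a fold of 6.67 in LNCaP and 7.39 in PC3. WASHC2A, a near-identical copy of WASHC2C elsewhere on chromosome 10, also had an entry near an end, of fold 14.0 in LNCaP and 10.6 in PC3, 107 bp from that end in LNCaP and 110 bp in PC3. Reads from either copy could map to the other, and the authors' handling of such reads was not given in the sources used here.

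DVL2 and PHF23 follow each other on chromosome 17 and are read in the same direction, so that the end of PHF23 meets the start of DVL2. The strongest LNCaP entry of the pair lay at that junction. It had a fold of 26.0, a −log10 q of 56.1 and rank 11, with its summit 97 bp upstream of the DVL2 start and 424 bp past the 3-prime end of PHF23. PC3 had an entry there too, 51 bp upstream of the DVL2 start, with a fold of 5.37 and rank 1061 by fold but 133 by q. The highest PC3 entry of this pair was another one, of fold 11.8 and −log10 q 22.5, 678 bp downstream of the start inside DVL2, and LNCaP had none at that place. DVL2 spans chr17:7225342-7234517 and PHF23 spans chr17:7235038-7240828.

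At the other end of PHF23 the entries were nearer to another gene. In LNCaP an entry of fold 11.6 lay 2168 bp beyond that end. In PC3 an overlapping entry of fold 6.92 lay 2234 bp beyond it, with the summits 66 bp apart. The summits were 547 bp (LNCaP) and 613 bp (PC3) upstream of the start of GABARAP, which encodes an autophagosome protein. They were 595 bp (LNCaP) and 529 bp (PC3) from an end of CTDNEP1, which encodes a phosphatase of the nuclear envelope. The nearest CTDNEP1 start site was 8738 bp away in LNCaP and 8672 bp away in PC3. The nearest annotated PHF23 start site was 4316 bp from the summit at the DVL2 junction. The highest entries of PHF23 and THOP1 were thus peaks at the promoters of DVL2 and SGTA. Among the weaker LNCaP entries of PHF23, the one of fold 5.86 lay 1980 bp from its nearest start site. Another, of fold 6.25, lay 1021 bp past its 5-prime end. The highest summits of RMND1, GTPBP6, TRMO, SGTA, WASHC2C, DVL2 and SLC33A1 lay within 297 bp of a start site of their own in LNCaP. GET4 had no start site in the promoter table used, so its highest summit was placed only by the gene end, 180 bp away in LNCaP.

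SLC33A1, the acetyl-CoA transporter gene at chr3:155821024-155854427, had 1 entry in each list with its summit on the same base. The LNCaP entry had a fold of 29.7, a −log10 q of 61.0 and rank 8. The PC3 entry had a fold of 8.06, a −log10 q of 24.6, rank 230 by fold and rank 93 by q. The summit was 297 bp upstream of the SLC33A1 start and 29 bp upstream of the start of the noncoding gene LOC105374174 on the opposite strand.

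**Figure D2:**
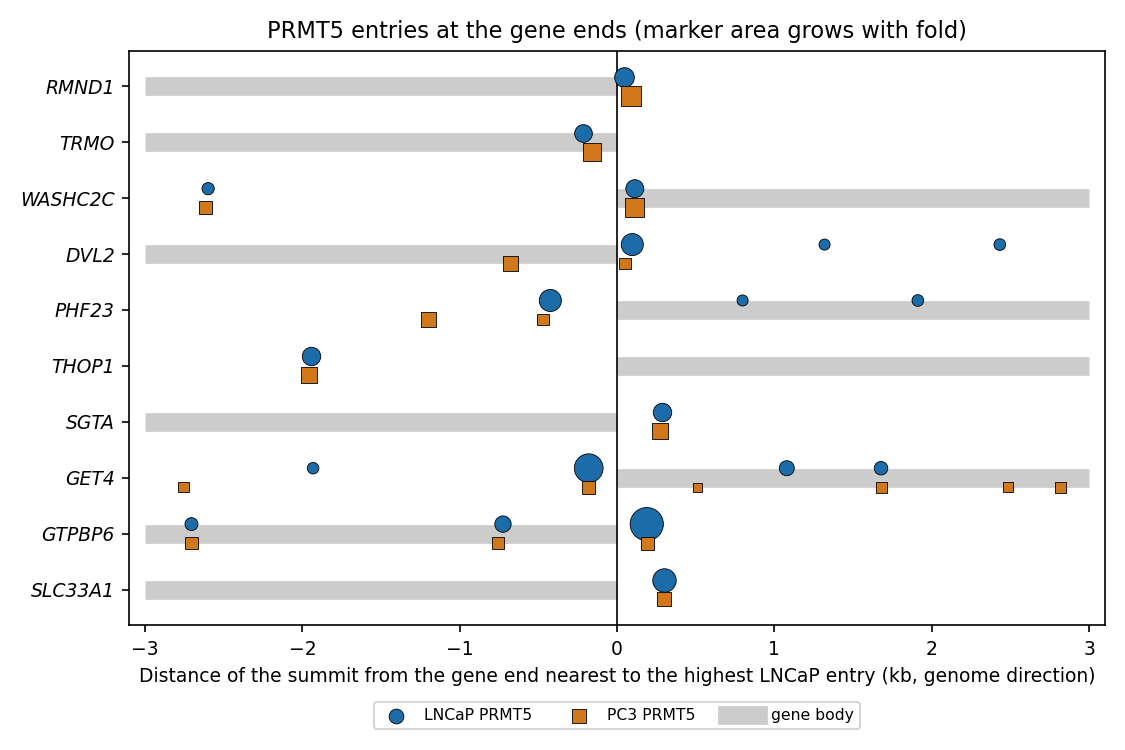
Position of every PRMT5 entry within 3 kb of a gene end, as distance of its summit from the gene end nearest to the highest LNCaP entry (horizontal axis, kb, in the direction of the genome), for each gene (rows), with circles for LNCaP, squares for PC3, grey bars for the gene body and marker area growing with fold; entries more than 3 kb from that end are not drawn. The largest circles, GTPBP6 and GET4, sit within 0.189 kb of the gene end, and the THOP1 entries sit 1.95 kb and 1.96 kb away from THOP1.

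The 2 lines placed most of their entries at nearly the same positions. The 10 genes held 19 distinct entries in LNCaP and 22 in PC3, and 14 of each overlapped an entry of the other line, in 15 pairs. The summits were within 60 bp of each other in 12 of these pairs, with a median distance of 18 bp and a largest one of 691 bp, at GET4. Every member's highest LNCaP entry, 8 distinct entries in all, overlapped a PC3 entry. The genes were chosen for peaks in both lines, so part of this overlap follows from the choice. The share of all LNCaP entries that overlap a PC3 entry was not computed. Within their own lists the members' highest entries ranked from 1 to 46 by fold in LNCaP and from 16 to 272 in PC3. Whether the lines differ at GTPBP6, GET4 or SLC33A1 was not tested, since each value rests on 1 library and on a control of its own.

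The members' highest entries reached other genes in most cases. For RMND1, DVL2, PHF23, THOP1, SGTA and GET4, 6 of 10, another protein-coding gene had an end within 3 kb of the summit. With genes of every type this held for 9, all but TRMO. DVL2 with PHF23 and SGTA with THOP1 are members that count as each other's neighbour on a shared entry. The share over all PRMT5 entries was not computed, so these counts do not set the members apart. No RNA was measured, so shared peaks are placed by distance alone, as given above, and no effect on any of the genes can be assigned.

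METTL3 peaks were not seen at these genes. None of the 10 had an end entry in the LNCaP METTL3 list, where 0.0749% of protein-coding genes had one, or in the PC3 METTL3 list, where 2.48% had one. At such low shares 0 of 10 does not set the members apart from other genes. Within 25 kb of the 10 genes there was 1 METTL3 entry. It came from PC3, had a fold of 5.61 and lay inside RMND1, 9055 bp from its nearest end.

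E-boxes stood close to the summits in both lines. Of the 8 distinct highest LNCaP entries 6 had sequence in the promoter table on 60 bases either side of the summit, and all 6 held CACGTG at least 2 times in those 121 bases, as the runs above show. The centre of the nearest one was 34.5 bp from the LNCaP summit at RMND1, 36.5 at GTPBP6, 4.5 at TRMO, 22.5 at WASHC2C, 9.5 at DVL2 and 21.5 at SLC33A1. In PC3 it was 6.5 bp from the summit at RMND1, 33.5 at GTPBP6, 62.5 at TRMO, 23.5 at WASHC2C, 17.5 at DVL2 and 21.5 at SLC33A1. The DVL2 value in PC3 is for the entry at the start site. The TRMO E-boxes fell just outside the 121 bases of the PC3 summit. SGTA was not among the 6, as its summit lay 35 bp outside its window in LNCaP and 21 bp outside it in PC3. GET4 was not among them either, as the promoter table has no window for it.

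**Figure D3:**
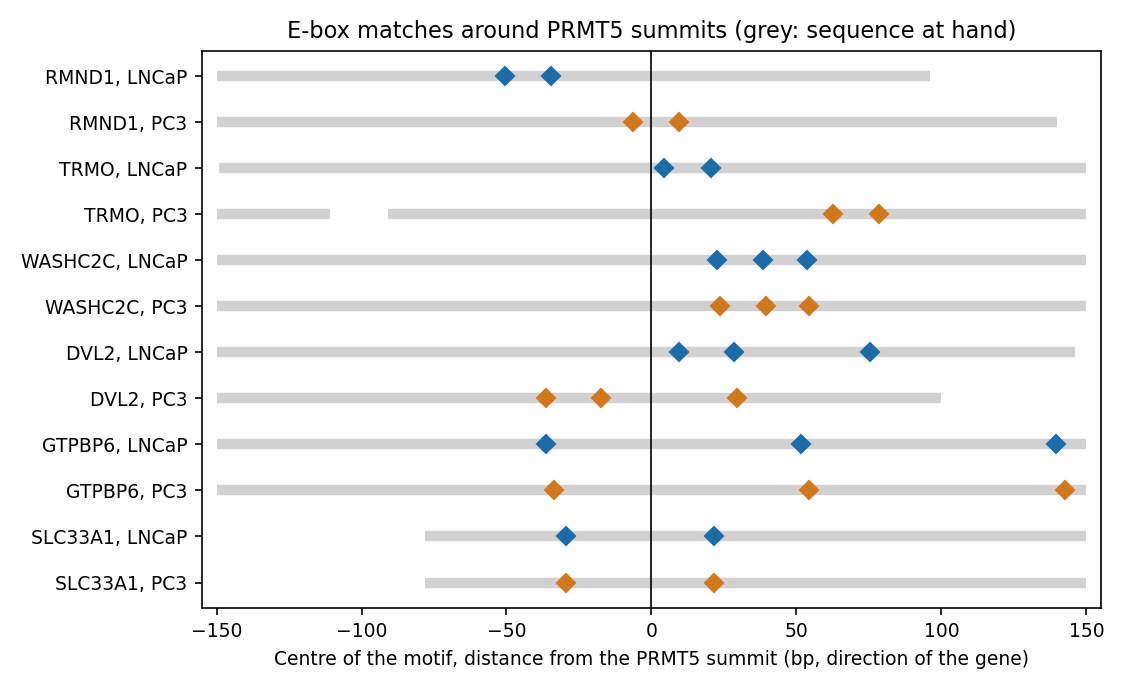
Centres of the E-boxes around the PRMT5 summit (diamonds; horizontal axis, bp from the summit in the direction of the gene) for each of 6 genes in LNCaP and PC3 (rows); grey bars show where the promoter table gives sequence, the DVL2 rows use the entry at its start, and the GTPBP6 rows use its highest entries. The nearest E-box lies between 4.5 and 36.5 bp from the LNCaP summits, and in PC3 it lies farthest away at TRMO, at 62.5 bp.

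Such E-boxes were a feature of PRMT5 summits at promoters in general. In a window of 121 bases around the summit CACGTG was found at 70.2% of 121 LNCaP PRMT5 summits and 63.2% of 87 PC3 PRMT5 summits with sequence, the members among them. It was found 2 or more times at 19.8% of them in LNCaP and 21.8% in PC3. Windows of that width centred 100 bases before the start of every protein-coding promoter held it in 4.13% of 22183 cases, and 2 or more times in 0.243%. Among METTL3 summits it was found at 1 of 3 in LNCaP and 0 of 13 in PC3.

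Whole promoter windows, 250 bases before to 50 after a start site, gave the same picture. RMND1, GTPBP6, TRMO, WASHC2C and DVL2 held CACGTG in such a window, 5 of the 9 members with one, or 55.6%, where 10.9% of 15843 genes did. RMND1 and TRMO held 2, and GTPBP6, WASHC2C and DVL2 held 3. Over all protein-coding windows 0.847% held 2 or more and 0.131% held 3 or more. The windows of PHF23, THOP1, SGTA and SLC33A1 and the other windows of TRMO and WASHC2C held none, and none of these windows held a PRMT5 summit. The SLC33A1 E-boxes lie in the window of LOC105374174, upstream of the SLC33A1 one.

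Across the series, the share of windows with CACGTG was 80.5% (95% exact binomial interval 73.8 to 86.1) among the 174 that held a LNCaP PRMT5 summit and 76.2% (67.9 to 83.2) among the 130 that held a PC3 one. It was 8.34% (7.98 to 8.71) over all windows. Few windows held a METTL3 summit. CACGTG was in 2 of 3 of these in LNCaP, or 66.7% (9.43 to 99.2), and in 1 of 10 in PC3, or 10.0% (0.253 to 44.5). Such wide intervals do not allow a contrast between the antibodies in LNCaP. Of the 80 windows with a PRMT5 summit in both lines 92.5% held CACGTG (84.4 to 97.2). The members supplied 5 of these 80, each with 2 or more E-boxes. Of the other 75 windows, 69 held at least 1, or 92.0%, and 43 held 2 or more, or 57.3%. Windows of genes that share a promoter overlap, so they are not independent, and the intervals cover counting error only. A match says that the letters are there and nothing about which factor binds.

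**Figure D4:**
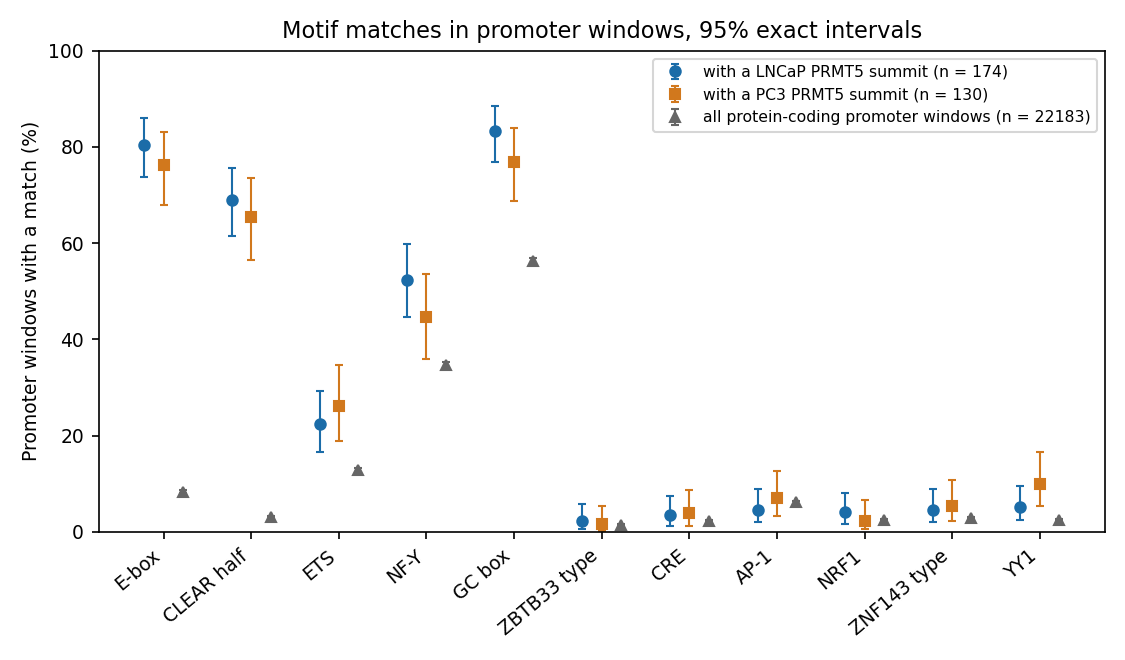
Share of promoter windows of 300 bases with at least 1 match to each of 11 motifs (vertical axis, percent; horizontal axis, motif), for windows that hold a LNCaP PRMT5 summit (circles, n = 174), a PC3 PRMT5 summit (squares, n = 130) or any protein-coding window (triangles, n = 22183), with 95% exact binomial intervals. The E-box stands at 80.5% in LNCaP and 76.2% in PC3 above 8.34% over all windows.

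For 10 further motifs, all searched on both strands, the members are given beside the share of all genes. The longer form GTCACGTG, which contains CACGTG and is the inner part of the element known from lysosomal genes, was found in the same 5 genes and in 4.06% of all genes. Windows with a PRMT5 summit, members among them, held it at 69.0% in LNCaP and 65.4% in PC3. The GC box GGGCGG was found in 8 of 9 members and 64.3% of genes, and the NF-Y letters CCAAT in 7 of 9 and 42.1%. Windows with a PRMT5 summit held the GC box at 83.3% in LNCaP and 76.9% in PC3, and CCAAT at 52.3% and 44.6%. These motifs therefore do not set the members apart from other PRMT5 promoters. The ETS letters CCGGAAG were found in RMND1 and WASHC2C and in 16.5% of genes. The CRE letters TGACGTCA, at 3.0% of genes, and the NRF1 letters GCGCATGCG, at 3.11%, were found in TRMO alone, and the ZNF143-type letters ACTACAA, at 3.81%, in PHF23 alone. None of the 9 held the ZBTB33-type letters CTCGCGAG, the AP-1 letters TGANTCA or the YY1 letters AAGATGGCG, which 1.8%, 8.04% and 3.21% of genes held. The 13 windows of the members had a median GC content of 65.7% (56.3 to 72.7), close to the 62.3% of all windows, and a median observed-over-expected CpG ratio of 0.852, with 0.737 over all windows.

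The E-boxes came as pairs with a repeated spacing in 3 genes. From start to start they were 16 bp apart in RMND1 and in TRMO and 16 and 15 bp apart in WASHC2C. The smallest spacing was 15 or 16 bp in 9 of 186 promoter windows with 2 or more E-boxes, or 4.84%, these 3 included, and in 3 of 72 windows of other genes with a PRMT5 summit, or 4.17%. The spacings were 47 and 19 bp in DVL2, 51 bp near SLC33A1, and 88 bp between each neighbouring pair in GTPBP6. The 2 GTPBP6 E-boxes printed above sit in copies of a repeat, with 51 of 60 bases identical around them, or 85.0%, and the other one shares 36 of 60 bases, or 60.0%, with either.

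Among the 192 protein-coding genes with an end entry in both PRMT5 lists, the smaller of the 2 folds had a median of 6.05. By this measure, over 2 lists, RMND1 came first at 19.2, WASHC2C in place 3, TRMO in place 4, SGTA and THOP1 in place 10, DVL2 and PHF23 in place 12, SLC33A1 in place 54, GTPBP6 in place 55 and GET4 in place 60. Of the other genes, DCPH1 was highest by it, through the RMND1 entry. OR8U9 and SCGB1C1 shared their entry in each line, with 16.1 in LNCaP and 14.9 in PC3, and SCGB1C2 had 14.1 in LNCaP and 14.9 in PC3. These LNCaP summits lay 2135 bp from an end of OR8U9, 2731 bp from one of SCGB1C1 and 1212 bp from one of SCGB1C2. AGRP and ATP6V0D1, which encodes part of the proton pump of acidic vesicles, also shared theirs, with 18.4 in LNCaP and 12.9 in PC3. They were followed by SPNS1, a lysosomal transporter gene, with 12.1 in LNCaP and 11.8 in PC3, and BAX, a cell death gene, with 21.2 in LNCaP and 11.5 in PC3. Promoter windows held 4 E-boxes at BAX, 2 at SPNS1 and 1 each at DCPH1, AGRP and ATP6V0D1, and none at SCGB1C1 or SCGB1C2. DCPH1 shares the RMND1 promoter, so its E-box may be one already counted there. The LNCaP summit lay 79 bp from an end of ATP6V0D1 but 1335 bp from AGRP, so the AGRP match is not shown to lie at the peak. OR8U9 had no promoter window. Just below GET4, whose smaller fold was 7.81, came ATP5MC1 with 7.67, QTRT1 with 7.65 and CLK2 with 7.57.

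PRMT5 entries were also counted at other genes, members left out, from 9 lists, of which all but one hold genes of a member's pathway or family and the remaining one holds the genes of the pseudoautosomal region. Of these 108 genes 7 had an end entry in the LNCaP PRMT5 list, or 6.48%, where 1.92% of all protein-coding genes had one. In the PC3 PRMT5 list 6 had one, or 5.56%, where 2.42% of all protein-coding genes did. In the LNCaP METTL3 list 0 had one, and in the PC3 METTL3 list 2 had one, or 1.85%, where 2.48% of all protein-coding genes did. The lists were chosen with results known, so these shares were not tested. In the WASH and endosomal recycling list 3 of 15 had a PRMT5 end entry in LNCaP and 4 of 15 in PC3. The shares of all protein-coding genes were 1.92% and 2.42%. WASHC2A, the near-identical copy of the member WASHC2C, is in both counts and in the 7 and 6 above. The other genes were VPS26A, a retromer subunit, with folds of 6.33 in LNCaP and 3.93 in PC3, VPS26C with 5.57 in LNCaP and 4.89 in PC3, and WASHC5 with 4.18 in PC3 only. In the tail-anchored protein list GET3, the targeting ATPase, had a fold of 6.2 and EMC2 one of 8.98, both in LNCaP only. Among tRNA modification genes OSGEP, which makes the threonylcarbamoyl adenosine that TRMO methylates, had folds of 11.5 in LNCaP and 8.43 in PC3, and TRMT1 had 7.28 in PC3. PLCXD1, next to GTPBP6, had 7.85 in LNCaP. Wnt signalling (15 other genes), mitochondrial translation (14), oligopeptidases (7), PHD finger relatives (7) and the transporters listed with SLC33A1 (6) had 0 genes with a PRMT5 end entry in either line. In PC3 METTL3, WASHC3 had a fold of 4.73 and SLC35A1 one of 5.54.

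The identity of the lines could not be read from the lists. None of KLK3 and TMPRSS2, markers of LNCaP, or CD44, CAV1 and VIM, markers of PC3, had an end entry in any of the 4 lists. Read depth behind the lists is unknown, and the control libraries entered only through the calls.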

How the data were processed

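LNCaP and PC3 cells were profiled by in-situ ChIP, where an antibody-bound protein G-Tn5 transposase cuts and tags nearby chromatin, per the labels' protocols. The build was hg38, with MACS2 2.1.0, Bowtie 1.1.1, Trimmomatic 0.33, bcl2fastq 2.17 and ChIPseeker as the tools named in the submitters' processing notes. How they were set, and whether duplicates were removed or reads shifted, was not given in the sources used here. The deposited lists each come from 1 library and the same line's control, so peaks were not pooled. The authors deposited for each peak a score, which was 10 times the −log10 q within 1 unit, a fold (ratio over the control), −log10 p and −log10 q, and the summit as an offset from the peak's start. The largest q was 0.0495. Depth is unknown, so a list's length cannot be set against it.

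Only entries placed on the assembled chromosomes (1 to 22, X, Y) were used, which left 980 of 1084 for LNCaP PRMT5, 1661 of 1721 for PC3 PRMT5, 173 of 199 for LNCaP METTL3 and 7453 of 7500 for PC3 METTL3. Gene ends were taken from the RefSeq genes of GRCh38.p14, and strands, start sites and sequence from a RefSeq promoter table of that build with windows for 15843 protein-coding genes and for 9 of the 10 members. GET4 was the member without a window. Coordinates are 1-based. Counts, distances, ranks and motif matches were made with Python 3.11.15, pandas 2.3.3 and numpy 2.4.6, and the procedure was tested on simulated data. Named genes are the members, the genes sharing their entries, the 8 other genes with the largest smaller fold in both PRMT5 lists, the 3 just below the weakest member, and up to 4 partner genes per list. The members, lists and motifs were chosen with earlier results of these data known. The summit windows, spacings and repeat comparison were chosen after the promoter matches had been seen. No test was run, as groups had 1 library and the PRMT5 lists chose the members. Alternatives changed the distance, the q or fold minimum, the way an entry is placed and the overlap. Some line markers are not reported here.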

Additional observations from a re-analysis of the deposited data

How the results depend on the processing

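The count of members with an end entry stayed at 10 in LNCaP, 10 in PC3 and 10 in both PRMT5 lists with a 5 kb limit, a −log10 q of at least 3, a fold of at least 5, or any base of the entry in place of the summit. It was 9, 9 and 9 with a 1 kb limit, which dropped THOP1. The members' count was 10, 7 and 7 with a fold of at least 10, which dropped GET4, GTPBP6 and SLC33A1 in PC3. Of all protein-coding genes 124 then had an entry in LNCaP, 68 in PC3 and 33 in both. Counting only the nearest protein-coding end gave 9 in LNCaP, without THOP1, and 8 in PC3, without PHF23 and THOP1. Over all protein-coding genes this gave 291 in LNCaP, 380 in PC3 and 134 in both. Counting start sites of the promoter table gave 9 in LNCaP, without GET4, and 8 in PC3, without PHF23 and GET4. GET4 dropped out because that table holds no start site for it. By start sites 283 protein-coding genes were counted in LNCaP, 277 in PC3 and 134 in both. The METTL3 counts of the members were 0 under each of these settings. Over all protein-coding genes they ranged from 1 to 27 in LNCaP and from 0 to 773 in PC3. The lines overlapped at 8 members when at least 50% of both entries had to be shared, and at 10 with summits within 200 bp. A protein-coding neighbour was in reach of the highest entry for 4 members at 1 kb and 7 at 5 kb. CACGTG was found in 5 members in the 150 bases nearer to the start as well, where 6.7% of genes held it. Of 20 folds, the PC3 values of DVL2 and PHF23 moved, to 5.37, when the entry nearest to the gene end replaced the highest. Leaving out a replicate was not run, since each group had 1 library. No paired analysis was possible because no group has a second library and no test was made. Unknown depth limits what the absence of an entry shows.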
